A study of Homo sapiens with 12 samples.

Results

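Keratins are the intermediate filament proteins of epithelial cells, and a keratin filament is built from paired chains, 1 of the acidic type I class and 1 of the basic type II class. KRT5 and KRT14 are the pair of the basal layer of stratified epithelia and of the basal cells of the mammary duct, and KRT8 with KRT18 is the first pair of simple epithelia, carried by the luminal cells of the breast together with KRT7 and KRT19. KRT6A, KRT6B and KRT16, with KRT17, are known as keratins that epidermis switches on after wounding or other stress, and staining for KRT5, KRT14 and KRT17 has long been used to recognize basal-like (BL) breast tumors.

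The transcripts of 10 keratin genes, picked by name out of the 63677 genes of the count files, were followed after knock-down of the nuclear lncRNA LINC01956 (ENSG00000258910). They comprise 3 basal keratins (KRT5, KRT14 and KRT17), 3 stress-induced keratins (KRT6A, KRT6B and KRT16) and 4 simple keratins (KRT7, KRT8, KRT18 and KRT19), and all 10 were among the 21325 genes with enough counts to be tested. Poly-A RNA was sequenced from 3 human BL breast cancer cell lines. In the knock-down (KD) groups, MDA-MB-468, SUM149PT and HCC38 cells received 2 antisense LNA GapmeRs against the lncRNA, LNA1 and LNA2 together, at a final 50 nM at seeding, and the control groups of the same lines received a non-targeting LNA (LNA NS). Medium was replaced after 6 h and cells were collected 24 h after transfection, with 2 libraries in each of the 6 groups and 12 libraries in all. Each line stands for 1 tumor, each was grown in its own medium, and nothing in the labels ties the 2 libraries of a group to separate dishes. The p-values therefore measure the spread between these libraries, which may be technical.

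Gene counts per library ran from 32187835 to 56191152. The targeted lncRNA had 0.0230 and 0.0235 CPM (counts scaled to the TMM-normalized library size) in KD libraries of MDA-MB-468, against 0.796 and 0.611 CPM with LNA NS. SUM149PT had 0.576 and 0.416 CPM of it with KD, against 10.7 and 11.2 CPM with LNA NS, and HCC38 had 1.48 and 2.05 CPM with KD, against 14.6 and 15.1 CPM with LNA NS. Each epithelial marker examined (EPCAM, CDH1, CLDN4, CLDN7 and ESRP1) averaged at least 1 CPM in every group, and PGR, the progesterone receptor, was at or below 0.242 CPM in every library. ESR1, the estrogen receptor, was not absent from every line, averaging 2.36 CPM in KD and 7.02 CPM in LNA NS libraries of MDA-MB-468. It averaged 1.04 CPM in KD and 2.57 CPM in LNA NS libraries of SUM149PT, and 0.168 and 0.126 CPM in those of HCC38. ERBB2, the HER2 gene, averaged 65.2 CPM in MDA-MB-468, 54.8 CPM in SUM149PT and 168 CPM in HCC38 (LNA NS). The immune markers PTPRC and LYZ stayed at or below 0.119 CPM in every library, and the 6 immune markers together reached 14.0 CPM at most. In bulk RNA, fewer cells of a kind and less RNA per cell cannot be told apart.

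The genes lie in the 2 keratin clusters of the genome (positions in GRCh37). On chromosome 12 are the type II genes KRT7 (chr12:52626304-52645970), KRT6B (chr12:52840435-52845930), KRT6A (chr12:52880960-52887041), KRT5 (chr12:52908359-52914314) and KRT8 (chr12:53290971-53343738), followed by KRT18 (chr12:53342655-53346690), the type I gene that sits apart from its class. On chromosome 17 are the type I genes KRT19 (chr17:39679869-39684560), KRT14 (chr17:39738531-39743147), KRT16 (chr17:39766030-39772151) and KRT17 (chr17:39775694-39781094). The start of KRT18 lies within the long upstream transcripts of KRT8 on the opposite strand. The libraries were strand-specific, but no source used here gives the strand setting of the counting, so reads of that overlap may be misassigned.

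Several of these genes are near copies of each other, which matters because reads with several alignments entered no gene count. The HTSeq summary line for them held 28.6% to 32.4% of a library's counts, gene and summary lines together, which need not be their share of reads. The coding sequences of KRT6A and KRT6B were 97.5% identical, with 42 different bases in 1692 and identical runs of up to 269 bases, and the third copy, KRT6C, was 98.5% identical to KRT6B. The stretch below shows where the KRT6 genes can be told apart. It is 60 bases of coding exon 2 on the minus strand of GRCh37 (KRT6A chr12:52885339-52885398, KRT6B chr12:52844223-52844282 and KRT6C chr12:52865883-52865942), with the 9 positions that differ in capitals.
KRT6A: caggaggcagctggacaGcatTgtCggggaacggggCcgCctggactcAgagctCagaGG
KRT6B: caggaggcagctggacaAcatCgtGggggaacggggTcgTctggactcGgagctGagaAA
KRT6C: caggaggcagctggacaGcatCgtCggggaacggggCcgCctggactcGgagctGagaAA
Among the type I genes, KRT14 and KRT16 were 88.7% identical, with identical runs of up to 158 bases, KRT14 and KRT17 were 85.2% identical, and KRT16 and KRT17 were 80.9% identical. The next stretch, from coding exon 1 on the minus strand (KRT14 chr17:39742569-39742628, KRT16 chr17:39768417-39768476 and KRT17 chr17:39780337-39780396), shows 25 of 60 positions that differ, again in capitals.
KRT14: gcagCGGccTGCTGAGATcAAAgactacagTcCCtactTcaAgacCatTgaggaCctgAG
KRT16: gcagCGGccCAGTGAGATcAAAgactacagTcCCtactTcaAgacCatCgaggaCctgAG
KRT17: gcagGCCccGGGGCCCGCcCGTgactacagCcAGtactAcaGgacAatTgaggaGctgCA
In this stretch KRT14 and KRT16 are close to each other and KRT17 stands apart. Levels of KRT6A, KRT6B, KRT14 and KRT16 are therefore read from the parts of each mRNA that differ, and the counts may understate them.

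The 3 lines carried the keratins in very different amounts (plot of CPM per library). Together the 10 genes took 0.766% to 0.793% of the gene counts in KD libraries of MDA-MB-468, against 0.955% to 0.991% in LNA NS libraries. In SUM149PT they took 0.892% to 0.930% with KD, against 1.10% to 1.14% with LNA NS. HCC38 had 0.367% to 0.394% with KD, against 0.351% to 0.374% with LNA NS. The keratin share was thus lower in both KD libraries than in both LNA NS libraries of MDA-MB-468 and SUM149PT, while the groups overlapped in HCC38. HCC38 held less of every class. Basal keratins took 0.00513% to 0.00646% of its gene counts, against 0.163% to 0.277% in the other 2 lines, stress-induced keratins 0.00593% to 0.00834%, against 0.0192% to 0.224%, and simple keratins 0.339% to 0.381%, against 0.516% to 0.693%.

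**Figure D1:**
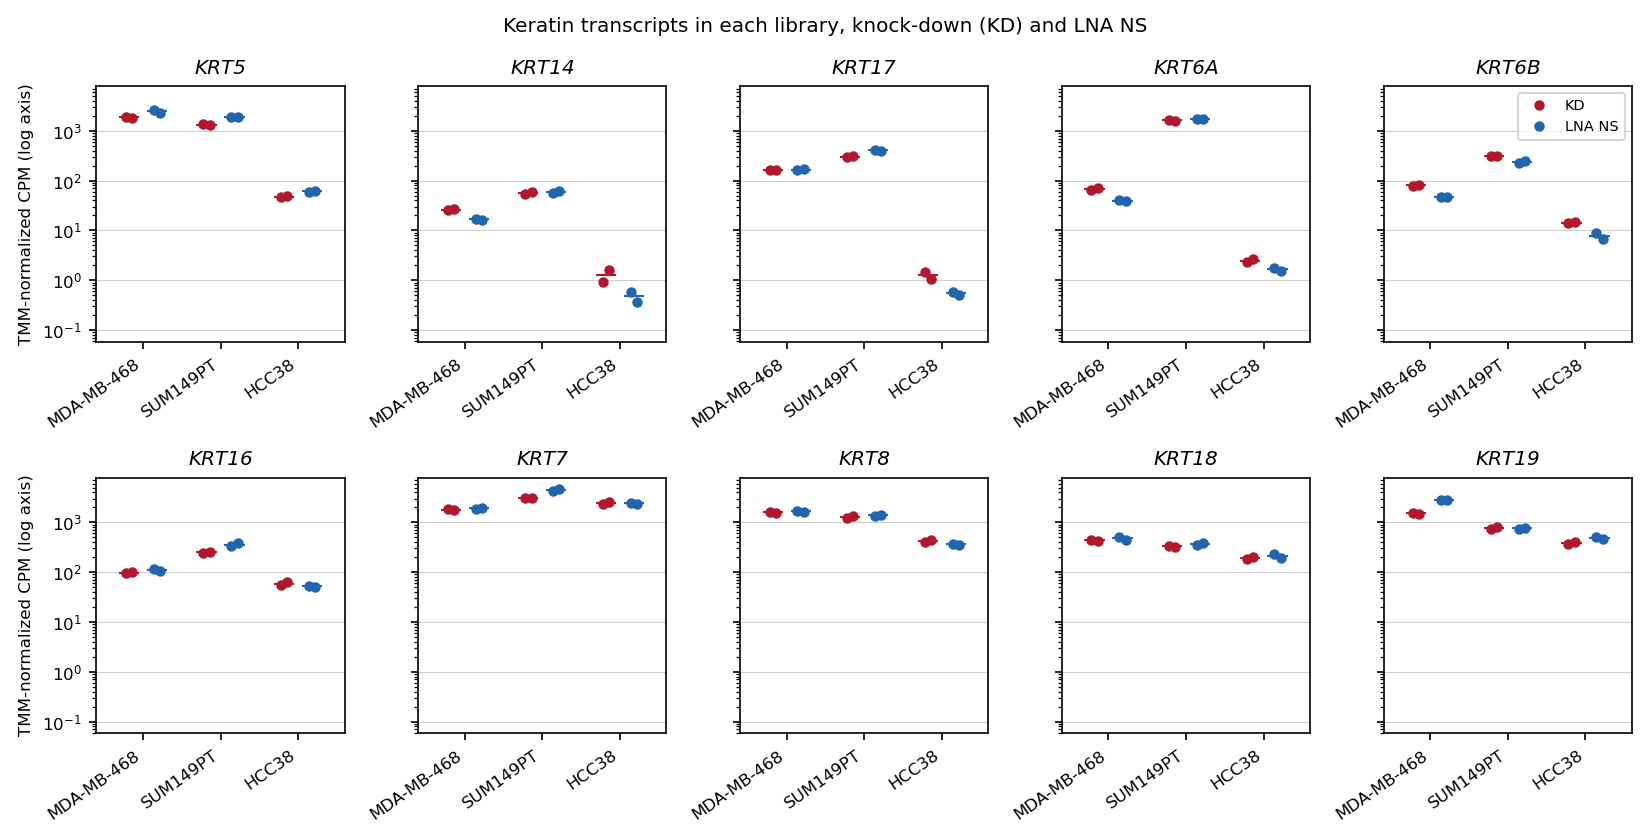
Level of the 10 keratins in each library as TMM-normalized CPM on a log axis, with KD in red and LNA NS in blue (n = 2 libraries, horizontal lines are means). KRT14 and KRT17 sit near 1 CPM in HCC38 and KRT6A spans from 1.56 CPM in HCC38 to 1747 CPM in SUM149PT, whereas KRT7 lies between 1778 and 4654 CPM in every library.

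**Figure D2:**
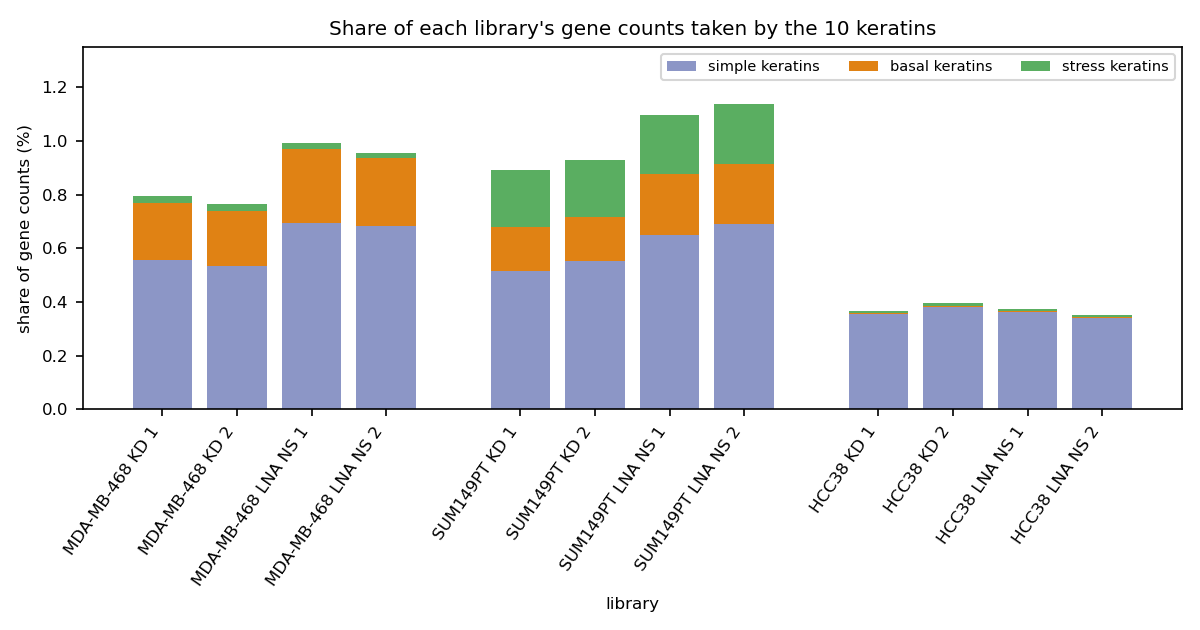
Share of the gene counts of each library, in percent, taken by simple, basal and stress-induced keratins, stacked from 0. Simple keratins are the largest class in all 12 libraries, stress-induced keratins are visible mainly in SUM149PT, and HCC38 is nearly all simple keratins.

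Levels between genes were compared per kilobase of exon. In LNA NS libraries of MDA-MB-468, KRT19 was the highest with 1203 CPM per kb, followed by KRT5 with 598 and KRT7 with 482 CPM per kb, and KRT14 was the lowest with 7.37 CPM per kb. In SUM149PT, KRT7 led with 1127 CPM per kb, followed by KRT6A with 594 and KRT5 with 454 CPM per kb. In HCC38, KRT7 led with 603 CPM per kb, followed by KRT19 with 209 CPM per kb, while KRT14 and KRT17 were at 0.213 and 0.184 CPM per kb. KRT7 or KRT19 thus led in every line, and KRT5, the type II partner of KRT14, far exceeded KRT14 in each. The order depends on the length used. With the length of the canonical mRNA, an alternative chosen after seeing the data, KRT7 passed KRT5 in MDA-MB-468 (1186 against 1104 CPM per kb), and KRT6A fell behind KRT5 and KRT8 in SUM149PT (753 against 838 and 776 CPM per kb).

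To ask how far the lines differ before any knock-down, the LNA NS libraries were compared between lines in the same edgeR fit (quasi-likelihood test, Benjamini-Hochberg adjusted p under 0.1). All 10 keratins differed between MDA-MB-468 and HCC38, where 71.4% of all tested genes did, between SUM149PT and HCC38 (69.6% of all genes) and between MDA-MB-468 and SUM149PT (68.5%). Of the keratins, 9 were higher and 1 lower in MDA-MB-468 than in HCC38 (33.7% and 37.7% of all genes), 10 were higher in SUM149PT than in HCC38 (31.6% of all genes higher, 38% lower), and 4 were higher and 6 lower in MDA-MB-468 than in SUM149PT (35.3% and 33.2%). More than 2-fold differences were seen for 9 keratins in the first comparison, 7 in the second and 7 in the third, against 43.6%, 40.1% and 40.7% of all genes. The 3 comparisons share libraries, and a single line of each kind does not tell a tumor type from a line or its medium.

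The stress-induced keratins set SUM149PT apart. KRT6A had 41.3 and 38.3 CPM in MDA-MB-468 and 1747 and 1728 CPM in SUM149PT, against 1.79 and 1.56 CPM in HCC38 (LNA NS libraries). The log2 difference was 4.57 ± 0.114 (standard error) for MDA-MB-468 over HCC38 and 10.02 ± 0.133 for SUM149PT over HCC38. KRT6B, its near copy, was spread less widely, by 2.62 ± 0.112 and 4.95 ± 0.121. In MDA-MB-468 over SUM149PT, KRT6A was lower by 5.45 on the log2 scale (−5.45 ± 0.104), and KRT6B was lower by 2.33 (−2.33 ± 0.105). KRT16, the type I partner of KRT6, had 114 and 107 CPM in MDA-MB-468 and 338 and 379 CPM in SUM149PT, against 53.0 and 50.3 CPM in HCC38. The log2 difference of KRT16 was 1.10 ± 0.0930 for MDA-MB-468 over HCC38 and 2.79 ± 0.0974 for SUM149PT over HCC38. The edgeR adjusted p of the 3 stress-induced keratins lay between 1.20e-16 and 3.50e-08 over these comparisons.

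Each of the 3 basal keratins was higher in MDA-MB-468 and SUM149PT than in HCC38. KRT14 was not abundant in these lines, averaging 16.6 CPM in MDA-MB-468 and 59.1 CPM in SUM149PT, against 61.1 CPM for KRT5 in HCC38 (LNA NS). KRT5 was higher by 5.34 ± 0.0958 in MDA-MB-468 than in HCC38 and by 4.94 ± 0.0941 in SUM149PT than in HCC38 (log2, edgeR adjusted p = 9.39e-16 and 3.70e-15). The log2 difference of KRT17 was 8.23 ± 0.146 and 9.53 ± 0.150, and that of KRT14 was 5.12 ± 0.221 and 6.95 ± 0.218. Of all gene counts of HCC38 LNA NS libraries, KRT14 had 27 and 18 and KRT17 had 27 and 25, so these genes were near the limit of what the depth resolves. Reads were also given to 8 KRT17 pseudogenes, and their sum was 48.7% to 77.8% of the KRT17 count in HCC38, against 0.108% to 0.263% in the other lines. Which gene those few HCC38 reads came from was not tested.

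Simple keratins differed by at most 2.53 on the log2 scale (KRT19, MDA-MB-468 over HCC38). KRT7 had 1893 and 1961 CPM in MDA-MB-468 and 4357 and 4654 CPM in SUM149PT, against 2489 and 2337 CPM in HCC38, and it was the keratin that was lower in MDA-MB-468 than in HCC38 (log2 difference −0.32 ± 0.0732, edgeR adjusted p = 0.00105). KRT8 was higher in MDA-MB-468 than in HCC38 by 2.23 ± 0.0836 and in SUM149PT than in HCC38 by 1.94 ± 0.0828 on the log2 scale. KRT18, its partner, differed less, by 1.16 ± 0.0986 and 0.80 ± 0.0980. KRT19, a type I keratin that lacks most of the tail domain, was high in MDA-MB-468, 2.53 ± 0.0863 above HCC38 and 1.90 ± 0.0844 above SUM149PT. The lines also differed in mesenchymal markers, whose 8 genes summed to 52.6 to 53.7 CPM in MDA-MB-468, 1736 to 2321 CPM in SUM149PT and 1350 to 1463 CPM in HCC38 (LNA NS). CDH1, the epithelial cadherin, was present in all lines, and the part of mesenchymal character in the keratin levels was not tested.

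**Figure D3:**
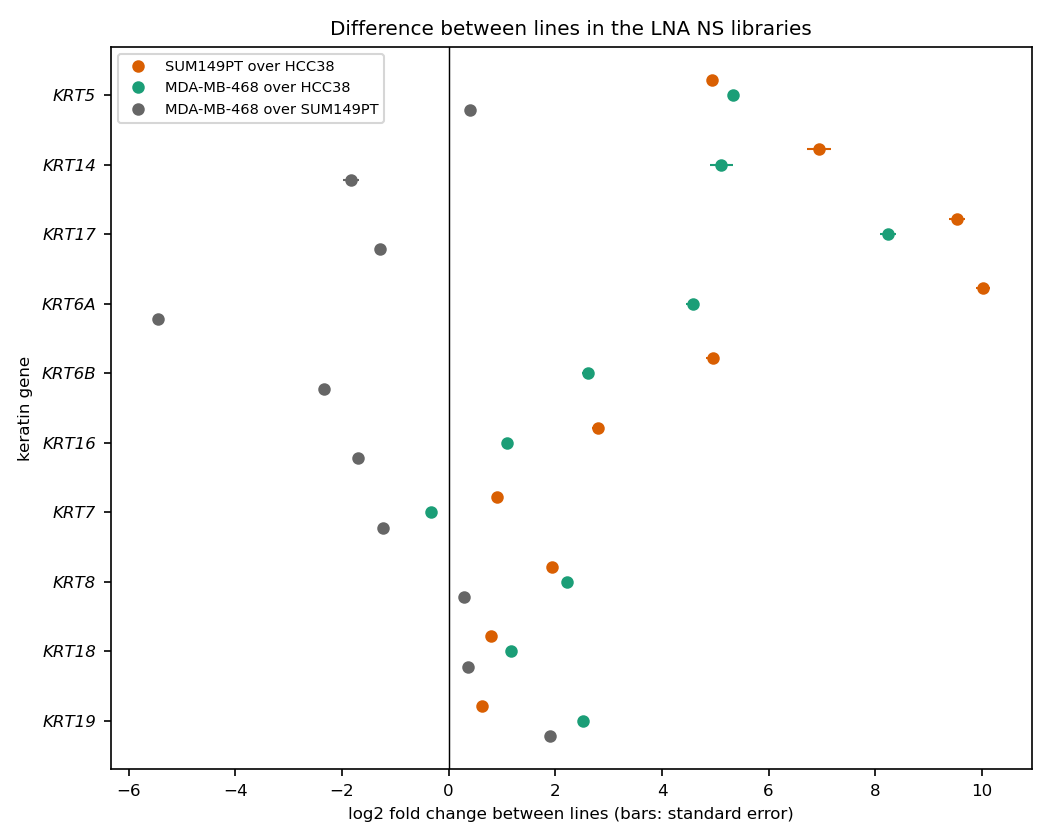
Log2 fold change between lines in LNA NS libraries for the 10 keratins (n = 2 libraries per line, colors mark the comparison, bars are standard errors). KRT6A spreads from −5.45 for MDA-MB-468 over SUM149PT to 10.02 for SUM149PT over HCC38, and KRT7, KRT8 and KRT18 stay closer to 0.

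Some keratins differed between KD and LNA NS in every line, in both directions and mostly by less than 2-fold. LNA1 and LNA2 were given together, so loss of the lncRNA and other effects of the LNAs cannot be told apart. In MDA-MB-468 the lncRNA itself had only 29 and 23 counts in the LNA NS libraries. In MDA-MB-468, 3 keratins rose and 2 fell at an edgeR adjusted p under 0.1, where 50.6% of all tested genes passed (24.9% higher and 25.7% lower). In SUM149PT, 1 rose and 4 fell, where 38% of all genes passed (20% higher and 18% lower). In HCC38, 5 rose and 2 fell, where 34% of all genes passed (15.5% higher and 18.4% lower). In the mean over the 3 lines, 4 rose and 5 fell, where 54.8% of all genes passed. The share of keratins called was close to the background in MDA-MB-468 and above it in the others, with 10 genes too few to read more from it. More than 2-fold changes were called for KRT14 and KRT17 in HCC38 and for no keratin in MDA-MB-468 or SUM149PT, where 20.2% and 10.6% of all genes changed by that much (9.36% in HCC38). With upper quartile scaling, 59.5% of all calls in MDA-MB-468, 59.6% in SUM149PT, 63.4% in HCC38 and 62.9% in the mean were higher with KD, against 49.2%, 52.6%, 45.8% and 51.8% with TMM.

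**Figure D4:**
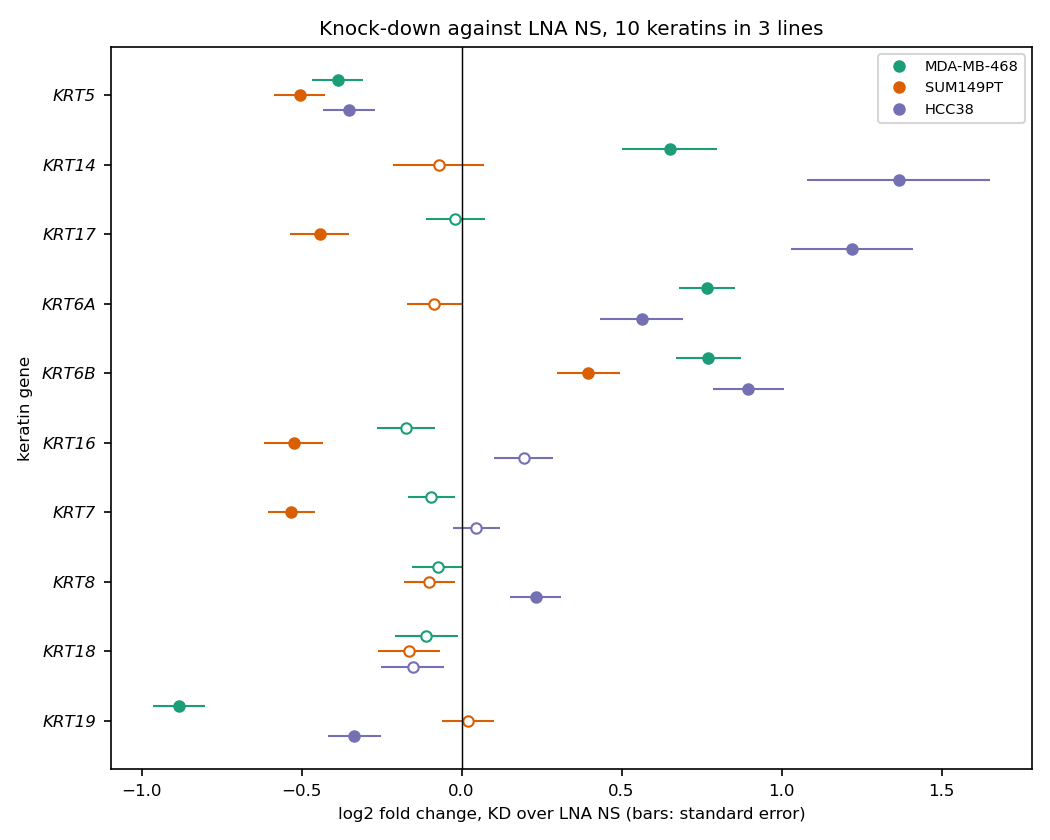
Log2 fold change of KD over LNA NS for each keratin in MDA-MB-468, SUM149PT and HCC38 (n = 2 libraries per group, bars are standard errors, filled points have an edgeR adjusted p under 0.1 and open points do not). KRT5 lies left of 0 and KRT6B right of 0 in all 3 lines, while KRT17 is at −0.44 in SUM149PT and at 1.22 in HCC38.

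The direction was shared by all lines for 2 genes. KRT5 was the keratin that fell in each of the 3 lines, as 8.74% of all genes did, and KRT6B was the keratin that rose in each, as 6.6% of all genes did. An F test of the difference between the lines' knock-down effects passed for 8 of the 10 keratins, where 32.4% of all genes passed. KRT5 (edgeR adjusted p = 0.540) and KRT18 (0.956) did not pass that test, which does not show that their effects were equal.

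Of the basal keratins, KRT5 fell in every line. In MDA-MB-468 it had 1929 and 1848 CPM with KD, against 2611 and 2329 CPM with LNA NS. SUM149PT had 1352 and 1292 CPM with KD, against 1884 and 1869 CPM with LNA NS. HCC38 had 46.3 and 49.6 CPM with KD, against 59.3 and 62.9 CPM with LNA NS. Both KD libraries were below both LNA NS libraries in each line, although the LNA NS level in MDA-MB-468 was 40.4 times that in HCC38. KRT5 changed by −0.39 ± 0.0795 (log2 fold change) in MDA-MB-468 cells, −0.51 ± 0.0796 in SUM149PT cells and −0.35 ± 0.0812 in HCC38 (edgeR adjusted p = 0.00086, 0.000183 and 0.00444), and −0.41 ± 0.0463 in the mean.

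KRT14, the partner of KRT5 in basal cells, did not follow it. It had 25.4 and 26.8 CPM with KD in MDA-MB-468, against 17.0 and 16.2 CPM with LNA NS. In SUM149PT it had 54.1 and 58.3 CPM with KD, against 57.3 and 60.8 CPM with LNA NS. In HCC38 it had 0.915 and 1.64 CPM with KD (50 and 61 counts), against 0.590 and 0.368 CPM with LNA NS (27 and 18 counts). KRT14 rose in MDA-MB-468 (log2 fold change 0.65 ± 0.149, edgeR adjusted p = 0.00199) and in HCC38 (1.37 ± 0.286, 0.00212), and the groups overlapped in SUM149PT (−0.07 ± 0.142, 0.762). The HCC38 value rests on few counts and was 0.94 without KD replicate 2, which is under 2-fold, though still past the threshold (adjusted p = 0.0293). The effect differed between lines (F test, edgeR adjusted p = 0.00655).

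KRT17 was the keratin called in opposite directions among the lines, as 3.72% of all genes were. SUM149PT cells had 294 and 307 CPM with KD, against 415 and 402 CPM with LNA NS, and it fell (log2 fold change −0.44 ± 0.0920, edgeR adjusted p = 0.00166). HCC38 cells had 1.46 and 1.05 CPM with KD (80 and 39 counts), against 0.590 and 0.512 CPM with LNA NS (27 and 25 counts), and it rose (1.22 ± 0.192, 0.000209). In MDA-MB-468 it had 162 and 166 CPM with KD, against 161 and 172 CPM with LNA NS, and the groups overlapped (−0.02 ± 0.0923, 0.905). The rise was thus seen in the line with the lowest level, and the fall in the line with the highest. Without KD replicate 1 of HCC38 it was 0.91, under 2-fold (adjusted p = 0.0238), and the mean over the lines, 0.25 ± 0.0778 (adjusted p = 0.0134), became 0.14 and was no longer called (adjusted p = 0.270). The KRT17 pseudogenes had 53 and 19 counts in the KD libraries of HCC38, against 21 and 16 in its LNA NS libraries.

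Of the stress-induced keratins, KRT6B rose in every line. It had 78.5 and 82.9 CPM with KD in MDA-MB-468, against 48.0 and 46.5 CPM with LNA NS. The SUM149PT libraries had 319 and 307 CPM with KD, against 231 and 244 CPM with LNA NS. The HCC38 libraries had 14.0 and 14.7 CPM with KD, against 8.70 and 6.74 CPM with LNA NS. Both KD libraries exceeded both LNA NS libraries in each line. KRT6B changed by 0.77 ± 0.102 (log2 fold change) in MDA-MB-468 cells, 0.40 ± 0.0993 in SUM149PT cells and 0.90 ± 0.112 in HCC38 (edgeR adjusted p = 1.51e-05, 0.00635 and 2.51e-05), with a mean of 0.69 ± 0.0604, the highest of the 10 keratins. The difference between lines (F test, edgeR adjusted p = 0.0433) was lost without SUM149PT KD replicate 2 or LNA NS replicate 2 (0.149 and 0.137).

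KRT6A moved with KRT6B in 2 lines and not in the third. It had 65.0 and 70.6 CPM with KD in MDA-MB-468, against 41.3 and 38.3 CPM with LNA NS. In HCC38 it had 2.29 and 2.69 CPM with KD, against 1.79 and 1.56 CPM with LNA NS. In SUM149PT, where KRT6A was most abundant, it had 1665 and 1609.5 CPM with KD, against 1747 and 1728 CPM with LNA NS. It rose in MDA-MB-468 (log2 fold change 0.77 ± 0.0887, edgeR adjusted p = 3.88e-06) and HCC38 (0.56 ± 0.129, 0.00413) but did not pass in SUM149PT (−0.09 ± 0.0858, 0.502), although both KD libraries of SUM149PT lay below both LNA NS libraries. The F test of the difference between lines gave an edgeR adjusted p of 0.00062. KRT6C, the third copy, was found at 0 to 8 counts per library in MDA-MB-468 and at 0 to 9 counts in HCC38. In SUM149PT it had 533 and 396 counts with KD, against 375 and 281 counts with LNA NS, and it was not called (log2 fold change 0.17 ± 0.290, edgeR adjusted p = 0.714).

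KRT16, which pairs with KRT6, was not called as risen in any line in the main fit. In HCC38 it was higher with KD, as KRT6A and KRT6B were, and in SUM149PT lower, as KRT6A was. SUM149PT cells had 239 and 259 CPM of KRT16 with KD, against 338 and 379 CPM with LNA NS, and it fell (log2 fold change −0.53 ± 0.0908, edgeR adjusted p = 0.000399). In MDA-MB-468 it had 96.5 and 99.3 CPM with KD, against 114 and 107 CPM with LNA NS (−0.17 ± 0.0915, 0.141). HCC38 cells had 56.0 and 62.1 CPM with KD, against 53.0 and 50.3 CPM with LNA NS (0.19 ± 0.0925, 0.140). The groups did not overlap in any line, below LNA NS in MDA-MB-468 and SUM149PT and above it in HCC38, but only the fall in SUM149PT passed, and the HCC38 rise passed under 5 alternatives. Of these, DESeq2 gave an adjusted p of 0.0932 and a minimum of 10 counts in every library gave 0.0477. The fall in MDA-MB-468 passed under 1 alternative, a replicate block with crossed HCC38 numbers (0.0936). The pseudogene KRT16P6 took reads beside it, with 1133 and 964 counts in KD and 1663 and 1494 counts in LNA NS libraries of MDA-MB-468, and 742 and 629 counts in KD and 501 and 580 counts in LNA NS libraries of HCC38. The SUM149PT libraries had at most 7 counts of KRT16P6 in any library. A further pseudogene, KRT16P2, had 406 and 297 counts in KD and 371 and 465 counts in LNA NS libraries of HCC38. It had at most 19 counts in any library of the other lines. KRT16P6 fell in MDA-MB-468 (−0.81 ± 0.131, edgeR adjusted p = 0.000112) and rose in HCC38 (0.41 ± 0.136, 0.0337), and whether either pseudogene shares reads with KRT16 was not tested.

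Among the simple keratins, KRT19 in MDA-MB-468 showed the largest fall of the 10 genes in any line. It had 1572 and 1473 CPM with KD in MDA-MB-468, against 2858 and 2761 CPM with LNA NS. The HCC38 libraries had 372 and 402 CPM with KD, against 512 and 464 CPM with LNA NS. SUM149PT had 740 and 790 CPM with KD, against 731 and 778 CPM with LNA NS. KRT19 fell in MDA-MB-468 (log2 fold change −0.88 ± 0.0822, edgeR adjusted p = 4.00e-07) and in HCC38 (−0.33 ± 0.0819, 0.0064), with no overlap of the groups. In SUM149PT the groups overlapped (0.02 ± 0.0817, 0.904). The effect differed between the lines (F test, edgeR adjusted p = 0.000287).

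KRT7, the most abundant keratin of SUM149PT and HCC38 among the 10, was called in SUM149PT only. It had 3077 and 3154 CPM with KD in SUM149PT, against 4357 and 4654 CPM with LNA NS (log2 fold change −0.53 ± 0.0734, edgeR adjusted p = 5.56e-05). In MDA-MB-468 it had 1832 and 1778 CPM with KD, against 1893 and 1961 CPM with LNA NS (−0.09 ± 0.0732, 0.324). In HCC38 it had 2394 and 2591 CPM with KD, against 2489 and 2337 CPM with LNA NS (0.05 ± 0.0732, 0.695). The groups overlapped in HCC38, and the effect differed between lines (F test, edgeR adjusted p = 0.00246). The 4 keratins that fell in SUM149PT, KRT5, KRT17, KRT16 and KRT7, did so by a similar amount, from −0.44 to −0.53 on the log2 scale.

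KRT8 and KRT18, the founding pair of simple epithelia, had the smallest changes of the 10 in the mean over the lines with TMM (0.02 and −0.14 on the log2 scale), though not within each line. KRT8 had 1622 and 1576 CPM with KD in MDA-MB-468, against 1716 and 1651 CPM with LNA NS. In SUM149PT it had 1236 and 1344 CPM with KD, against 1332 and 1435 CPM with LNA NS. HCC38 cells had 407 and 438 CPM with KD, against 373 and 347 CPM with LNA NS. KRT8 rose in HCC38 (log2 fold change 0.23 ± 0.0801, edgeR adjusted p = 0.0426) and was not called in MDA-MB-468 (−0.07 ± 0.0799, 0.488) or SUM149PT (−0.10 ± 0.0799, 0.377). The call in HCC38 was lost without KD replicate 2 (0.239) or LNA NS replicate 2 (0.199) of that line, and in a fit of that line alone (0.119). The difference between lines passed (F test, edgeR adjusted p = 0.0644), but leaving out 1 of 5 libraries ended it, with values of 0.117 to 0.221.

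KRT18 had 450 and 431 CPM with KD in MDA-MB-468, against 509 and 442 CPM with LNA NS. SUM149PT cells had 341 and 319 CPM with KD, against 358 and 382 CPM with LNA NS. The HCC38 libraries had 182 and 199.6 CPM with KD, against 228 and 196 CPM with LNA NS. The groups overlapped in MDA-MB-468 and HCC38, and no single line was called. KRT18 changed by −0.11 ± 0.0972 (log2 fold change) in MDA-MB-468 cells, −0.17 ± 0.0974 in SUM149PT cells and −0.15 ± 0.0976 in HCC38, and the mean of −0.14 ± 0.0562 passed (edgeR adjusted p = 0.0466). That call was lost when any of 5 of the 12 libraries was left out (MDA-MB-468 LNA NS replicate 1 and KD replicate 2, SUM149PT LNA NS replicate 2 and KD replicate 2, and HCC38 LNA NS replicate 1), with adjusted p of 0.101 to 0.135.

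Because filaments need both chains, the ratio of type II to type I keratins was followed within each library (plot of ratios). The sums hold only the basal, stress-induced and simple keratins followed here. KRT81, a type II hair keratin, was left out. With LNA NS its mean was 4820 CPM per kb of exon in SUM149PT and 819 in HCC38, above KRT7 (1127 and 603). In MDA-MB-468 it was 356 CPM per kb, below KRT7 (482). The ratios therefore do not cover all keratins of a library. Summed per kb of exon, the log2 ratio of type II over type I was 0.40 and 0.43 in KD libraries of MDA-MB-468, against −0.11 and −0.11 with LNA NS. In SUM149PT it was 1.62 and 1.55 with KD, against 1.74 and 1.71 with LNA NS. In HCC38 it was 1.48 and 1.47 with KD, against 1.14 and 1.21 with LNA NS. The ratio was thus higher with KD in both libraries of MDA-MB-468 and HCC38, and lower in both of SUM149PT. The sign in LNA NS libraries of MDA-MB-468 depends on the gene length, with a mean of 0.36 on canonical mRNA length. It may also depend on which keratins are summed, and a sum with KRT81 was not tested. For the keratins summed here, the difference between KD and LNA NS has the same direction on each length.

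The partner pairs shifted unequally. KRT5 over KRT14 had a mean log2 ratio of 5.30 ± 0.0974 with KD in MDA-MB-468, against 6.34 ± 0.0642 with LNA NS (SD, n = 2). It was 3.68 ± 0.123 with KD in SUM149PT, against 4.12 ± 0.0688 with LNA NS, and 4.41 ± 0.526 with KD in HCC38, against 6.16 ± 0.540 with LNA NS. Both KD libraries had a lower KRT5 to KRT14 ratio than both LNA NS libraries in every line. KRT6A over KRT16 went the other way, at −0.77 ± 0.0550 with KD in MDA-MB-468, against −1.71 ± 0.00442 with LNA NS. It was 2.48 ± 0.120 with KD in SUM149PT, against 2.04 ± 0.128 with LNA NS, and −4.81 ± 0.0615 with KD in HCC38, against −5.19 ± 0.0892 with LNA NS. KRT8 over KRT18 overlapped between KD and LNA NS in MDA-MB-468 and SUM149PT, and in HCC38 it was −0.02 ± 0.0216 with KD, against −0.40 ± 0.0791 with LNA NS. The sign of this HCC38 ratio depends on the gene length, with means of 0.81 with KD and 0.43 with LNA NS on canonical mRNA length. The near copies KRT6A and KRT6B had a log2 ratio of −0.60 ± 0.0295 with KD in MDA-MB-468, against −0.59 ± 0.0436 with LNA NS, while in SUM149PT the ratio was 2.04 ± 0.00623 with KD, against 2.52 ± 0.0660 with LNA NS, and in HCC38 it was −2.88 ± 0.118 with KD, against −2.54 ± 0.117 with LNA NS. Both KD libraries were below both LNA NS libraries in SUM149PT and HCC38. For KRT7 over KRT19 the log2 ratio was −0.53 ± 0.0354 with KD in MDA-MB-468, against −1.32 ± 0.0711 with LNA NS. It was 1.25 ± 0.0413 with KD in SUM149PT, against 1.80 ± 0.00352 with LNA NS, and 1.91 ± 0.00271 with KD in HCC38, against 1.53 ± 0.0355 with LNA NS. The sign with KD in MDA-MB-468 depends on the gene length, with a mean of 0.02 on canonical mRNA length. No test was run on the ratios.

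**Figure D5:**
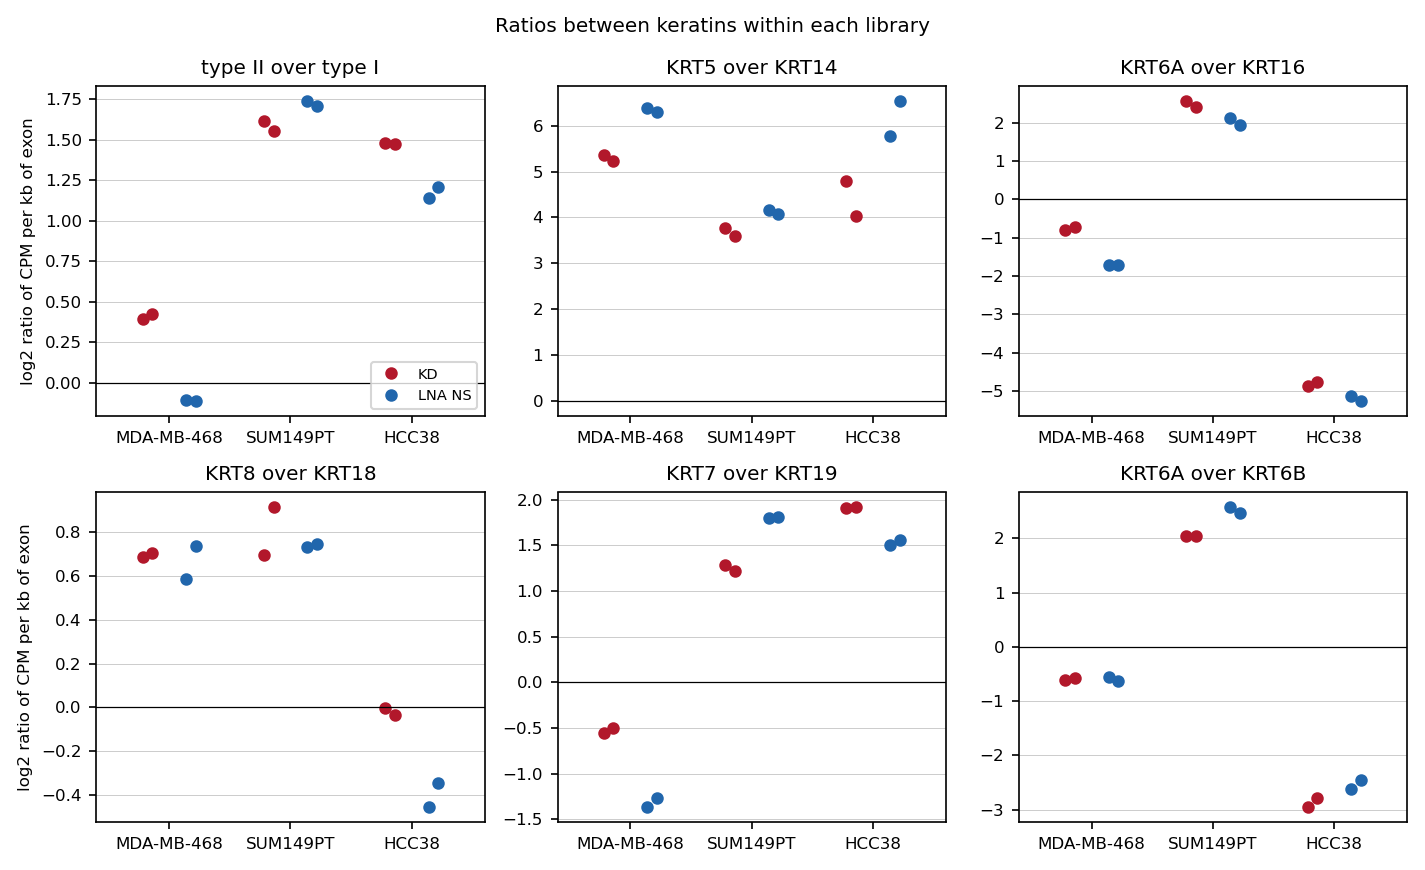
Log2 ratio between keratins in each library, on CPM per kb of exon, with KD in red and LNA NS in blue (n = 2 libraries, points are libraries, the black line marks equal levels on this gene length). KRT5 over KRT14 is lower and KRT6A over KRT16 is higher in both KD libraries of every line, and KRT8 over KRT18 overlaps between treatments in MDA-MB-468 and SUM149PT.

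Other keratins were measured beside the 10. Of 12 tested other type II keratins, 2 rose and none fell in the mean over the lines, where 28.4% of all genes were higher and 26.5% lower, and of 12 tested other type I keratins 4 rose and none fell. KRT80, a type II keratin, rose in MDA-MB-468 to 445 ± 5.99 CPM with KD, against 195 ± 9.98 CPM with LNA NS (log2 fold change 1.19 ± 0.0878, edgeR adjusted p = 3.48e-08). KRT81, a hair keratin, was more abundant in SUM149PT than any of the 10, at 6234 ± 312 CPM with KD, against 9298 ± 981 CPM with LNA NS, and it fell there (−0.58 ± 0.0912, 0.000188). KRT23 rose in SUM149PT to 8.41 ± 0.423 CPM with KD, against 3.77 ± 0.521 CPM with LNA NS (1.16 ± 0.125, 5.12e-06). KRT15, a further basal keratin, moved in opposite directions, falling in MDA-MB-468 to 75.6 ± 5.63 CPM with KD, against 121 ± 1.77 CPM with LNA NS (−0.68 ± 0.102, 5.69e-05), and rising in SUM149PT to 30.0 ± 3.48 CPM with KD, against 19.4 ± 0.0267 CPM with LNA NS (0.63 ± 0.108, 0.000388). KRT9, a keratin of palm and sole skin, rose in all 3 lines at low levels, in SUM149PT to 23.9 ± 0.485 CPM with KD, against 11.0 ± 0.286 CPM with LNA NS. KRT10, a keratin of differentiating epidermis, rose in MDA-MB-468 (0.67 ± 0.141, 0.000995) and SUM149PT (0.63 ± 0.144, 0.00326).

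Genes known to act on keratin genes or filaments were grouped in lists, to be read against the 28.4% of all tested genes that were higher and the 26.5% that were lower in the mean contrast (54.8% in all). The lists were chosen with earlier results of these data known, so their counts are a description. A link between these genes and the keratin levels was not tested. Of 27 keratin gene regulators, 20 rose and 6 fell in the mean contrast, with a median log2 fold change of 0.40, against a median of 0.04 over all tested genes. FOSB, an AP-1 subunit, rose in MDA-MB-468 to 44.3 ± 7.03 CPM with KD, against 7.65 ± 0.153 CPM with LNA NS, and its mean log2 fold change was 2.16 ± 0.0987 (edgeR adjusted p = 8.73e-11). KLF4, an epidermal differentiation factor, and JUN, another AP-1 subunit, rose in all 3 lines, with means of 1.02 ± 0.0616 and 0.83 ± 0.0591. Of 21 desmosome and plakin genes, to which keratin filaments attach, 10 rose and 4 fell in the mean contrast (median 0.21). Among them the desmosomal cadherins DSC3 and DSC2 rose in each line (mean 1.17 ± 0.0667 and 0.82 ± 0.0596), and PKP4, a plakophilin-related protein of cell junctions, fell in each (−1.35 ± 0.0607). Of 22 genes that accompany stress keratins in epidermis, 2 rose and 4 fell in the mean contrast (median −0.04), and S100A9 fell in MDA-MB-468 to 546 ± 31.7 CPM with KD, against 959 ± 170 CPM with LNA NS. Between lines, 17 of the 22 were higher and 1 lower in MDA-MB-468 over HCC38 (33.7% and 37.7% of all genes). In SUM149PT over HCC38, 16 were higher and 4 lower (31.6% and 38% of all genes). In MDA-MB-468 over SUM149PT, where KRT6A was lower, 8 were higher and 9 lower (35.3% and 33.2% of all genes).

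Markers other than keratins were read in the same fit. Of 8 basal markers, none rose and 7 fell in the mean contrast (median −0.47), where 28.4% of all genes were higher and 26.5% lower. Of the 3 basal keratins, KRT5 fell and KRT14 and KRT17 rose in that contrast, but only KRT5 moved the same way in every line. KRT17 was at 1.22 in HCC38 on few counts, −0.02 in MDA-MB-468 and −0.44 in SUM149PT (log2 fold change). Its mean of 0.25 became 0.14 without KD replicate 1 of HCC38. KRT14 was at 0.65 in MDA-MB-468, 1.37 in HCC38 on few counts and −0.07 in SUM149PT. The sum of the 8 markers was 2937 to 3298 CPM with KD in MDA-MB-468, against 5655 to 6675 CPM with LNA NS. EGFR, the epidermal growth factor receptor, made up most of that sum, with 2967 and 2634 CPM with KD, against 5057 and 6055 CPM with LNA NS. In SUM149PT the sum was 4787 to 4899 CPM with KD, against 5673 to 6329 CPM with LNA NS, and in HCC38 it was 1180 to 1283 CPM with KD, against 1405 to 1560 CPM with LNA NS. TP63, the p63 transcription factor of basal cells, averaged at most 2.05 CPM in any group. Of 8 mesenchymal markers 5 rose and 1 fell in the mean contrast (28.4% and 26.5% of all genes). By line, 4 rose and none fell in MDA-MB-468 (24.9% and 25.7% of all genes). In SUM149PT 2 rose and 2 fell (20% and 18%), and in HCC38 2 rose and 1 fell (15.5% and 18.4%). Among the mesenchymal markers VIM, the intermediate filament of mesenchymal cells, rose in MDA-MB-468 (1.08 ± 0.116, edgeR adjusted p = 1.72e-06) and SUM149PT (0.78 ± 0.108, 5.89e-05). Of 5 epithelial markers 2 rose and 1 fell in the mean contrast. The part of these shifts in the keratin results was not tested.

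Across the 12 libraries, which come from 3 lines, other genes with a pattern like that of a keratin were ranked by Pearson r of log2 CPM as a description. The nearest to KRT5 was UBL4A (r = 0.996), to KRT17 GJB5 (0.998), to KRT6A SLC35C1 (0.999), to KRT8 PHLDA3 (0.999), and to KRT19 SEMA6B (0.990). The points share their line, so each r is a description over 3 lines rather than over 12 independent samples.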

How the data were processed

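The files hold raw read counts for 63677 Ensembl genes in each of 12 libraries, deposited by the authors without normalization. The paper's methods name STAR and GRCh37, while the submitters' processing notes list TopHat2 2.0.13, HTSeq 0.6.0, CASAVA 1.8.4, DESeq 3.0, bedtools 2.17.0 and R 3.1.1, so which aligner made these counts is unclear, and no source used here gives the annotation release. The 5 summary lines per library, which name no gene, held 40.8% to 53.7% of the counts and were left out. HTSeq does not count reads with several alignments, which lowers genes with near copies.

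Counts were fitted with edgeR 4.0.16 and limma 3.58.1 in R 4.3.3: filterByExpr (minimum count 10, minimum total 15), TMM, a mean for each of 6 groups, 6 residual degrees of freedom, common dispersion 0.0109, quasi-likelihood tests and Benjamini-Hochberg adjustment over 21325 genes. A call is an adjusted p under 0.1, and a second threshold is 2-fold. The fitted contrasts were KD against LNA NS in each line, their mean, an F test of their differences, and LNA NS between lines. Alternatives were RLE and upper quartile scaling, TMM without keratin genes, no filter, at least 10 counts in every library, DESeq2 1.42.0, each library left out, a replicate block, a separate fit and no gene length. The replicate numbers were not taken as pairs in the main fit, and whether same-numbered libraries come from paired cultures is not known.

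Sequences and positions come from the GRCh37 genome with an annotation that matched 55665 of 63677 genes, read with Python 3.11.15, numpy 2.4.6, pandas 2.3.3, scipy 1.17.1 and Biopython 1.88, and figures were drawn with matplotlib 3.10.9. Fits were tested on simulated data, in which far fewer genes changed than were called here. The changed genes were drawn from genes well counted in every library, unlike KRT14 and KRT17 in HCC38, and all genes were given the same dispersion. Within a line, 59.7% to 65.7% of 67 genes changed 1.5-fold were called, against 98.5% to 100% of 67 genes changed 2-fold. These rates do not cover genes of few counts or of another dispersion. A keratin that was not called may thus have changed by a small amount. The text names the 10 keratins, the targeted lncRNA, up to 3 genes of each list with the smallest p in the mean contrast and at least 1 CPM, other keratins of at least 10 CPM in a group, genes most like a keratin, and markers. Members and lists were chosen with earlier results of these data known. Of the lists, other intermediate filaments and lamins had 5 risen and 4 fallen of 11 tested genes in the mean contrast, partner and turnover proteins 5 and 4 of 17, luminal markers 3 and 2 of 6, fibroblast markers 0 and 1 of 5, immune markers 1 and 1 of 2, endothelial markers 1 and 0 of 2, and tumor receptors 0 and 2 of 3. In that contrast 28.4% of all tested genes were higher and 26.5% lower.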

Additional observations from a re-analysis of the deposited data

Results flagged for a closer look

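For 8 keratins the knock-down effect differed between the 3 lines by the F test of edgeR, with an adjusted p of 0.0065 for KRT14, 0.00028 for KRT17, 0.00062 for KRT6A, 0.043 for KRT6B, 0.0034 for KRT16, 0.0025 for KRT7, 0.064 for KRT8 and 0.00029 for KRT19. In KRT17 the called directions were opposite, with a log2 fold change of −0.44 in SUM149PT and 1.22 in HCC38, where it had 25 to 80 counts per library. In KRT6B all 3 lines were higher with KD and the difference was one of size, 0.77 for MDA-MB-468, 0.40 for SUM149PT and 0.90 for HCC38.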

How the results depend on the processing

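All 10 keratins differed in each comparison between lines under the 19 alternatives run for it, which do not include the replicate blocks. With KD, 5 to 6 keratins were called in MDA-MB-468, 5 in SUM149PT, 6 to 8 in HCC38 and 7 to 9 in the mean over the alternatives, and 6 to 8 differed between lines. Upper quartile scaling raised the median log2 fold change of all genes to 0.14 for MDA-MB-468, 0.09 for SUM149PT, 0.13 for HCC38 and 0.15 in the mean. It gave 6630 higher and 4520 lower genes in MDA-MB-468 (5306 and 5477 with TMM), 4903 and 3330 in SUM149PT (4260 and 3841), 4933 and 2842 in HCC38 (3316 and 3927), and 7619 and 4493 in the mean (6054 and 5642). It turned KRT17, KRT7, KRT8 and KRT18 in MDA-MB-468 to 0.12, 0.042, 0.063 and 0.027, none called, ended the mean calls of KRT16, KRT7 and KRT18, and added one for KRT8. KRT17 in MDA-MB-468 was 0.0094 with at least 10 counts in every library and −0.075 to 0.021 with 1 library left out. KRT19 in SUM149PT was −0.0013 with RLE, −0.0014 with DESeq2 and −0.022 to 0.058 with 1 library left out. KRT7 in HCC38 ranged from −0.011 to 0.089 and the mean of KRT8 from −0.0041 to 0.033 with 1 library left out. On canonical mRNA length, chosen after seeing the data, and with no length, the log2 ratio of KRT8 over KRT18 in HCC38 was 0.81 and 1.15 with KD, against 0.43 and 0.77 with LNA NS, KRT7 over KRT19 in MDA-MB-468 with KD was 0.021 and 0.25, and type II over type I in MDA-MB-468 LNA NS was 0.36 and 0.79. Of these, the length sets the ratios; the cause of the others was not tested.

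Same-numbered KD and LNA NS libraries deviated together with correlations of −0.0052 for MDA-MB-468, 0.097 for SUM149PT and −0.12 for HCC38, so the numbers were not taken as pairs. With the replicate block, 10309 genes were called in MDA-MB-468, 7392 in SUM149PT, 6413 in HCC38 and 11202 in the mean, and KRT8 no longer differed between lines (edgeR adjusted p = 0.133). With the HCC38 numbers crossed, chosen after seeing the data, the block called 11194, 8595, 7907 and 12012 genes. Depth limits KRT14 and KRT17 in HCC38, at 18 to 80 counts per library.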
